A study of Rattus norvegicus with 12 samples.

Results

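A set of 113 genes was lowered in the rat corpus luteum (CL) by an inhibitor of aromatase and was higher again when estradiol (E2) was given with the inhibitor. Members were chosen on the day 16 group means. The mean of the AI group had to lie at least 0.585 on the log2 scale (1.5-fold) below that of VEH, and the mean of the AI+E2 group at least 0.585 above that of AI. Of 14506 genes with 1 value each, 122 met both limits, 15 genes that the rule names were left out whether they met them or not, and 113 remained. Both limits use the same AI arrays, so the fall with AI and the rise with AI+E2 describe how the members were chosen, and no p value or count of calls for them counts as a test of the members.

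CL were taken from pregnant Wistar rats, with the RNA of 1 animal on each of 12 Affymetrix Rat Gene 1.0 ST arrays and 3 animals per group. Group D12 was collected on day 12 of pregnancy without treatment. The day 16 groups had received vehicle (VEH), the aromatase inhibitor anastrozole by mouth at 1 mg/kg per day (AI), or the same inhibitor with 10 µg per day of E2 under the skin (AI+E2), each for 4 days from day 12. Day and treatment time therefore cannot be told apart in any comparison of a day 16 group with D12. The inhibitor reached the whole animal, and no group received E2 without it. Values are RMA log2 values, that is normalized log2 fluorescence of a probe set, and a log2 difference of 1 is a 2-fold difference. Precision is limited by the number of arrays, and values of different probe sets are not compared as levels.

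In the rat, the CL of mid pregnancy converts androgen of placental origin into E2 by its own aromatase, and this E2 acts within the gland. Estrogen receptors are transcription factors that bind DNA directly at palindromic elements or through other factors such as AP-1, and E2 is known for making luteal cells of the rat larger and for supporting their supply of cholesterol. Large luteal cells hold much endoplasmic reticulum (ER), the compartment in which secreted and membrane proteins are inserted, folded and glycosylated before vesicles carry them to the Golgi apparatus and the cell surface. Extracts of CL also hold endothelium, pericytes, macrophages and other cells. In such whole tissue RNA, fewer cells of a type and less RNA per cell cannot be told apart.

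The summed level of 8 measured markers of luteal cells on the linear scale was 28743 to 29682 in D12 and 27584 to 28664 in VEH. It was 32190 to 33757 in AI and 32000 to 32614 in AI+E2, so VEH lay below both groups given the inhibitor without overlap. Array medians over all probe sets lay between 6.51 and 6.56. Markers of follicles (granulosa cells and oocytes) varied widely within groups, with a summed level of 1487 to 3579 in D12, 1317 to 3233 in VEH and 2128 to 4236 in AI, and of 2144 to 2248 in AI+E2.

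Glod5, which encodes a protein of the glyoxalase domain family, had the largest fall with AI. Its log2 value was 10.41, 10.10 and 10.23 in VEH, 6.28, 6.42 and 6.47 in AI, and 9.08, 8.91 and 9.11 in AI+E2. The fall was 14.5-fold and the rise from AI to AI+E2 was 6.25-fold, so that the AI+E2 arrays lay between the other day 16 groups without touching either.

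Enpp3, an ectonucleotidase of the cell surface that cleaves extracellular nucleotides, was at 10.62, 10.36 and 10.77 in VEH, at 8.13, 8.28 and 7.90 in AI, and at 10.40, 10.40 and 10.49 in AI+E2. The fall was 5.57-fold, the rise 5.02-fold, and the AI+E2 arrays lay within the range of VEH. Enpp3 is also known as a marker of basophils. The summed level of 11 measured markers of mast cells and basophils on the linear scale was 505 to 542 over all 12 arrays. At an adjusted p under 0.05, 1 of them was lower with AI and 0 higher with AI+E2, near the 11.0% and 8.65% of all genes. These markers were dim on average, so a change in such cells could be missed. The part of these cells in the values of Enpp3 was not tested.

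Phex, an endopeptidase of the cell surface known for its part in phosphate handling, was at 9.28, 9.25 and 9.26 in VEH, at 7.51, 7.67 and 7.28 in AI, and at 10.14, 10.11 and 10.22 in AI+E2. For this gene all AI+E2 arrays lay above all VEH arrays.

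Rasgrp1, an exchange factor that loads Ras with GTP in response to diacylglycerol, had values of 9.23, 9.18 and 9.19 in VEH, 7.32, 7.30 and 7.65 in AI, and 9.73, 9.59 and 9.73 in AI+E2. It had the same order of groups as Phex. Rab27a, a small GTPase that brings secretory vesicles and granules to the plasma membrane, was at 8.70, 8.42 and 8.95 in VEH, at 6.48, 6.55 and 6.58 in AI, and at 7.23, 7.14 and 7.52 in AI+E2. Its return was small beside its fall, at 1.70-fold against 4.44-fold.

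**Figure D1:**
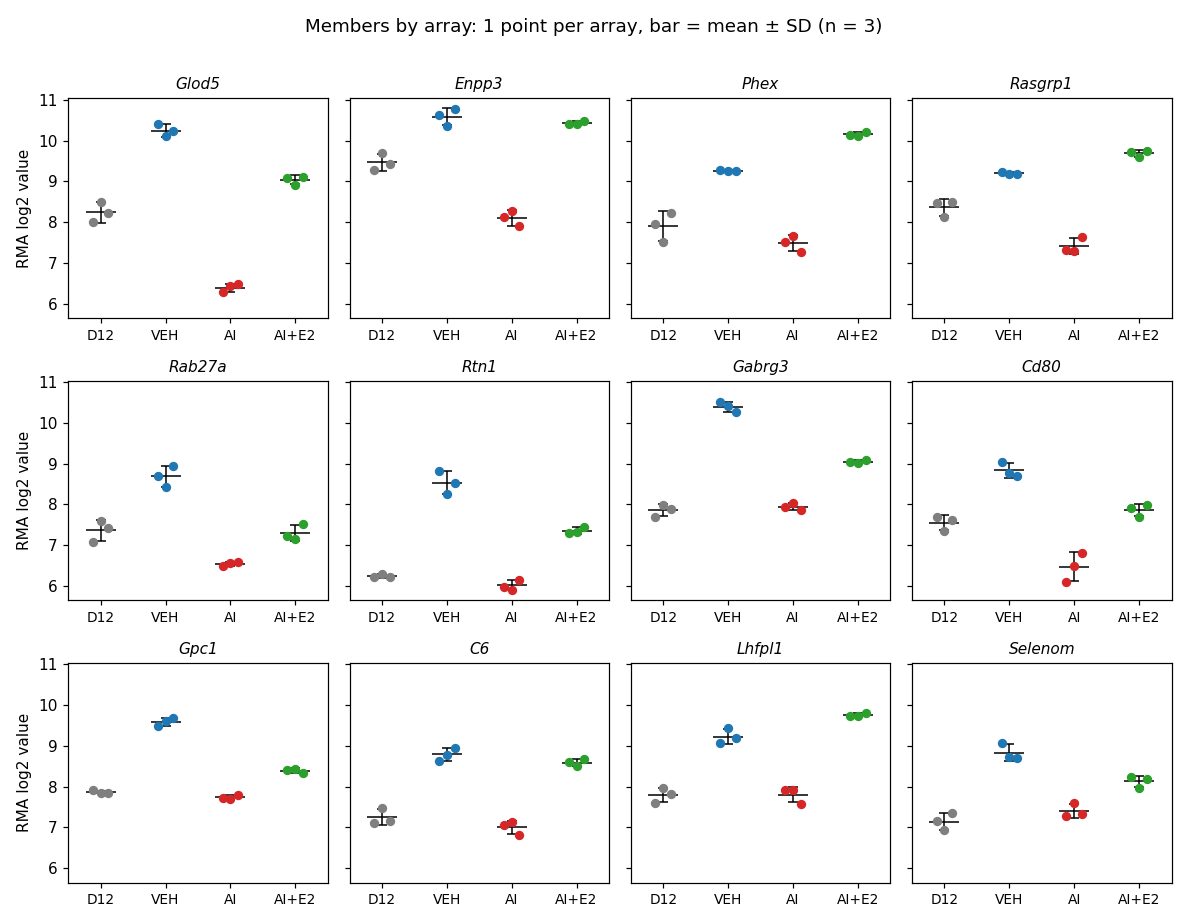
RMA log2 value (vertical axis) of 12 members in the 4 groups (horizontal axis), with 1 point per array and bars for mean ± SD (n = 3). AI points lie below VEH and AI+E2 points in each panel, while AI+E2 lies above VEH for Phex, Rasgrp1 and Lhfpl1 and below VEH for Glod5, Rab27a, Rtn1, Gabrg3, Cd80, Gpc1 and Selenom.

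The 10 largest falls with AI also included Rtn1, a reticulon that shapes ER tubules, Gabrg3, a GABA-A receptor subunit, Cd80, a costimulatory ligand of T cells, Gpc1, a heparan sulfate proteoglycan, and C6, a component of complement. C6 came back close to VEH, with 8.64, 8.78 and 8.96 in VEH, 7.05, 7.13 and 6.82 in AI, and 8.59, 8.50 and 8.68 in AI+E2. Gabrg3 did not, with 10.52, 10.40 and 10.28 in VEH, 7.92, 8.04 and 7.86 in AI, and 9.04, 9.01 and 9.08 in AI+E2.

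Over the 113 members the median fall with AI was 1.85-fold and the median rise from AI to AI+E2 was 1.77-fold. A fall of at least 2-fold was seen for 44 members, and 25 of these also rose at least 2-fold. By the adjusted p of the fit across all genes, 111 members fell with AI, against a background of 11.0% of all genes called lower, and 112 rose from AI to AI+E2, against 8.65% called higher. Members called the other way numbered 0 in both, against 5.91% of all genes called higher with AI and 4.13% called lower with AI+E2. These counts follow from the choice of members, and nothing is read from them. The exceptions were Hsd17b1, called in neither, and Ccl5, not called in AI against VEH. The members nearest inside the limit for the fall were Pigk at -0.591 and Ccl5 at -0.593, and the genes nearest outside were Tmbim1 at -0.576 and Myo1c at -0.571. For the rise these were Adgrl4 at 0.586 and Hsd17b1 at 0.593 inside, and Anxa4 at 0.581 and Acp2 at 0.575 outside.

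Hsd17b1, which converts estrone into E2 and is also known from granulosa cells, had arrays that overlapped between groups. Its values were 9.36, 8.13 and 7.30 in VEH, 7.09, 7.14 and 8.48 in AI, and 8.13, 8.12 and 8.23 in AI+E2. The highest VEH array and the highest AI array for this gene were also those with the highest summed level of follicle markers in their group, 3233 and 4236, and the part of follicle tissue in its values was not tested. Ccl5, a chemokine, had VEH values of 9.48, 8.43 and 8.58 against AI values of 7.85, 8.16 and 8.70, which overlap as well.

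The 113 members lie on the bright side of the array. The mean of every member over the 12 arrays was above the median gene, with a median percentile of 87.9 and a lowest of 54.3. Over all genes, the median difference of AI from VEH also went from 0.04 in the third of 10 equal classes of brightness, counted from the dimmest, to -0.07 in the brightest. Whether the members' values depend on this was not tested beyond the renormalization given next. When quantile normalization was applied again, 83 genes met the rule, all of them among the 113, and the median of the 113 members for AI against VEH was -0.79 instead of -0.89.

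Promoters are shown as examples for a few of the members whose 250 bases before the RefSeq start hold certain letters. These letters are a single arm of the receptor's element, the AP-1 motif or an element of the ER stress response. RefSeq (build GRCr8) gave a window of 250 bases for 87 of the 113 members and for 11950 of the genes tested. Motifs were searched on both strands. Capitals mark the motif, and each window ends at the base before the start. For Enpp3 (chr1:22382739-22382988, plus strand), Rasgrp1 (chr3:124684080-124684329, minus strand) and C6 (chr2:55573383-55573632, plus strand) they mark a single arm of the estrogen response element, GGTCA or TGACC on the other strand, which begins 90, 152 and 26 bases before the start.
Enpp3: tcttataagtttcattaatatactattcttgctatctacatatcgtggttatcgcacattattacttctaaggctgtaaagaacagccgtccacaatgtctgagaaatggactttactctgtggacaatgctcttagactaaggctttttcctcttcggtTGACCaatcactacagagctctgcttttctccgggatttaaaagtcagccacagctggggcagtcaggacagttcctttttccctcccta
Rasgrp1: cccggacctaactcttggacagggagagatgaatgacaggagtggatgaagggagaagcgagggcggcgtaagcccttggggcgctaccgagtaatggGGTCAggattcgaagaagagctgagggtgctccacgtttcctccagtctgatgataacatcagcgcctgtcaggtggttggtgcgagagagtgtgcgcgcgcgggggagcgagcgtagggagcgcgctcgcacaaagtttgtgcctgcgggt
C6: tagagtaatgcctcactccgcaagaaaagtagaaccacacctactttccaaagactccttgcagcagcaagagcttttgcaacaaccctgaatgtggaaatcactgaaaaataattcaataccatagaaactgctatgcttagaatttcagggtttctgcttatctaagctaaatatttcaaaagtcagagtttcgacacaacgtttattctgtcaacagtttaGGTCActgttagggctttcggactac

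The whole palindromic element, GGTCA and TGACC with 3 bases of any kind between them, was found in 0 of the 87 member windows and in 0.0251% of all windows. The single arm GGTCA was in 27 member windows (31.0%) and in 33.7% of all windows, so its share among members was near that of all genes. The AP-1 letters TGAGTCA were in 8 member windows (9.20%) and in 3.43% of all windows. The 8 members were Aox1, Atp6v1a, Car5b, Cxcl14, F2rl2, Glrx, Gstm5 and Map1lc3b. The GC box GGGCGG was in 59 member windows (67.8%) against 47.3% of all, and the median GC content of the windows was 60.8% for members and 57.2% for all genes. The AP-1 letters are shown for F2rl2, a thrombin receptor family member (chr2:28706516-28706765, plus strand), and for Glrx, a glutaredoxin that reduces protein disulfides (chr2:7073545-7073794, plus strand). They begin 129 and 151 bases before the start.
F2rl2: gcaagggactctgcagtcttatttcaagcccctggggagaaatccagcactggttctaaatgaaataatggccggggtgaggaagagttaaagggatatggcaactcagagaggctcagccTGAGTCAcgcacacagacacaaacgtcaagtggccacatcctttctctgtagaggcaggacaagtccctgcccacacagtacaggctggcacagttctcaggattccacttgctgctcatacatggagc
Glrx: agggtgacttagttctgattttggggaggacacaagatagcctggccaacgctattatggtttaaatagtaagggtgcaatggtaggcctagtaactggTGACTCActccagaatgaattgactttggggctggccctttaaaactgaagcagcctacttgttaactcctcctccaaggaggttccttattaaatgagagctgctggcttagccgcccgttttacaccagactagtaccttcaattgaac

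F2rl2 had values of 8.72, 9.29 and 8.91 in VEH, 7.54, 7.56 and 7.13 in AI, and 9.32, 9.31 and 9.34 in AI+E2. Glrx fell by 1.04 with AI and was 0.89 higher again with AI+E2 on the log2 scale. A match of letters is a description of these windows and not evidence of binding.

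The most numerous role, with 20 members, was entry into the ER, folding and glycosylation. Roles were assigned to the members by hand after the members were known. These 20 genes fell with AI by a median of 0.82 on the log2 scale and were higher with AI+E2 by a median of 0.78. Sec11c, a catalytic subunit of signal peptidase, which removes signal peptides, was at 9.83, 9.55 and 9.65 in VEH, at 7.88, 8.18 and 7.97 in AI, and at 9.64, 9.50 and 9.67 in AI+E2. Its VEH and AI+E2 arrays overlapped and the AI arrays lay far below.

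Ssr4, a subunit of the complex beside the translocon channel, was at 11.06, 11.08 and 11.08 in VEH, 10.11, 10.37 and 10.00 in AI, and 11.08, 11.08 and 11.05 in AI+E2. It came back to VEH with a difference of 0.00 and 95% limits of -0.19 and 0.18. Ddost and Ssr2, of the glycosylation and translocon complexes, P4hb, Pdia6 and Erp29, of the disulfide isomerase family, and Uggt1, which checks the folding of glycoproteins, belonged to the same role. So did Fkbp7, Fkbp10, Fkbp11 and Fkbp14, prolyl isomerases of the ER, while a further FKBP member, Fkbp1a, is cytosolic and binds intracellular calcium release channels.

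Derl3 and Hyou1, which serve the removal of misfolded proteins and folding in the ER, are textbook targets of the ER stress response. Their windows are shown because they hold the letters of its elements, CCAAT and CCACG with 9 bases of any kind between them for Derl3 (chr20:12766466-12766715, minus strand, the reverse strand of the element beginning 154 bases before the start) and TGACGTGG for Hyou1 (chr8:53602632-53602881, plus strand, beginning 191 bases before the start). Each was the only member window with those letters, which were in 0.126% and 0.669% of all windows.
Derl3: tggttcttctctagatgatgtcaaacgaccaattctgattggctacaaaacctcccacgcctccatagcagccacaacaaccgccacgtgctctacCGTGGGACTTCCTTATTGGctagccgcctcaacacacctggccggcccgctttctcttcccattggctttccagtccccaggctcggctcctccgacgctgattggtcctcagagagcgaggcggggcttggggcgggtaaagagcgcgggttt
Hyou1: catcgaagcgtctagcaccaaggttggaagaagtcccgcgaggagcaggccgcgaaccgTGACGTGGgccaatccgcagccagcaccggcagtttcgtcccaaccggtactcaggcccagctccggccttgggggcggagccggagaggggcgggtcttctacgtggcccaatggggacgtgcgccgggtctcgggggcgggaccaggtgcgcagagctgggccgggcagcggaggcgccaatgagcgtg

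Derl3 was at 10.29, 10.05 and 10.12 in VEH, at 9.18, 9.27 and 8.83 in AI, and at 10.42, 10.41 and 10.42 in AI+E2. Hyou1 was at 9.97, 9.89 and 9.82 in VEH, at 9.30, 9.32 and 9.19 in AI, and at 9.97, 9.94 and 10.06 in AI+E2. Unlike most members, both stood on day 12 near their level in VEH, with a difference of VEH from D12 of 0.23 with 95% limits of 0.03 and 0.43 (adjusted p = 0.158) for Derl3 and of 0.02 with limits of -0.12 and 0.16 (adjusted p = 0.886) for Hyou1.

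Families around these members were counted with and without the members, which were chosen for moving. A list of 22 measured genes of the translocon, signal peptidase and oligosaccharyltransferase was drawn up after the members were known, and 4 of the 22 are members. Of the other 18, 13 fell with AI and 11 rose from AI to AI+E2, with backgrounds of 11.0% and 8.65% of all genes, and 0 moved the other way in either. The median of all 22 was -0.53 and then 0.33. Of 8 measured genes of the COPII coat other than the member Sec24a, 6 fell with AI and 3 rose with AI+E2. This coat forms vesicles at the ER. Of 5 measured TMED cargo receptors other than Tmed3 and Tmed9, 2 fell and 1 rose. Of 9 measured FKBP genes that are not members, 1 fell and 2 were higher with AI, and 0 rose and 1 was lower with AI+E2, so that 1 of 9 was near the share of all genes. Of 8 measured genes of the protein disulfide isomerase family that are not members, 2 fell and 1 was higher with AI, and 3 rose and 1 was lower with AI+E2.

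**Figure D2:**
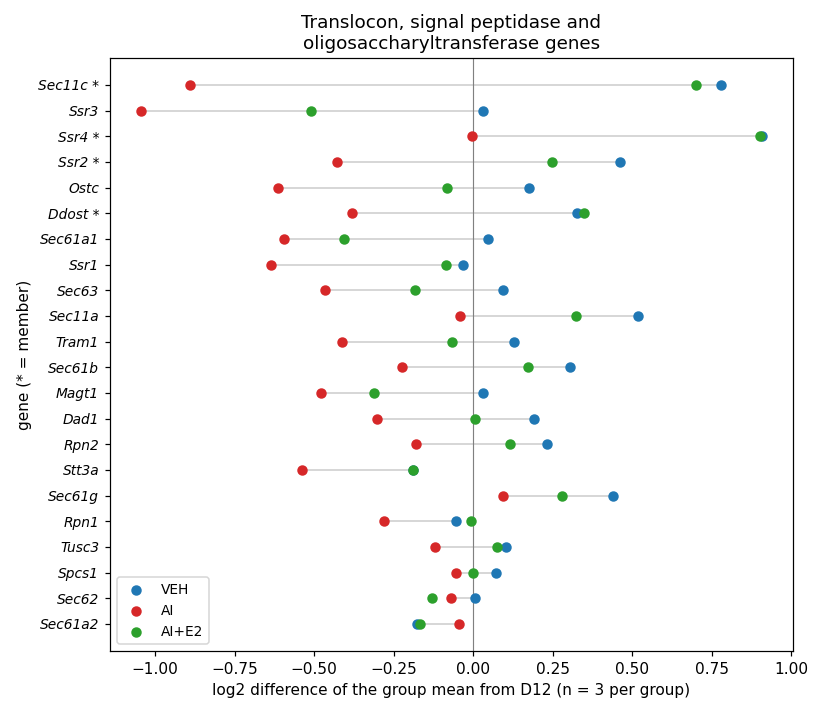
Difference of each group mean from D12 (log2, horizontal axis, n = 3 per group) for 22 genes of the translocon, signal peptidase and oligosaccharyltransferase (vertical axis, members marked with an asterisk), with a grey line from AI to VEH. AI lies left of VEH for 21 of the 22 genes, and AI+E2 lies right of AI for 20.

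Vesicle transport held 10 members, with a median fall of 1.25 and a median rise of 0.77 on the log2 scale. Besides Rtn1 and Rab27a these included Tmed3, a cargo receptor, Cnih2, a relative of cargo receptors known as an AMPA receptor partner, Atp11a, a flippase, Ap2a2, an adaptor subunit of clathrin coats, and Nucb2, the precursor of nesfatin. Tmed3 was at 9.22, 9.19 and 9.17 in VEH, at 7.68, 7.63 and 7.40 in AI, and at 8.67, 8.56 and 8.64 in AI+E2, an intermediate return. Of 19 measured genes of the Rab27 and Rab3 secretion machinery, Rab27a is the only member. Of the other 18, 4 fell and 1 was higher with AI, against 11.0% and 5.91% of all genes. From AI to AI+E2, 3 rose and 2 were lower, against 8.65% and 4.13% of all genes. Rab3a, a GTPase of regulated secretion, fell by 0.24 with AI and was 0.63 higher with AI+E2.

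Lysosome and autophagy genes numbered 9. Fuca1, a lysosomal fucosidase, was at 12.52, 12.61 and 12.54 in VEH, at 11.22, 11.35 and 10.92 in AI, and at 12.53, 12.48 and 12.50 in AI+E2, with the AI arrays apart and the others at nearly the same value. The cathepsins Ctsl and Ctsh, the acid sphingomyelinase Smpd1, subunits Atp6v1a and Atp6v0e2 of the proton pump, the transmembrane protein Laptm4b and the autophagosome protein Map1lc3b were further members. Of 27 measured lysosomal hydrolases, 11 fell and 1 was higher with AI, and 16 rose and 1 was lower with AI+E2. Of the 23 hydrolases that are not members, 7 fell and 1 was higher with AI, against 11.0% and 5.91% of all genes. From AI to AI+E2, 12 of the 23 rose and 1 was lower, against 8.65% and 4.13% of all genes.

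Enzymes of glycans and lipids numbered 8, among them the sialyltransferases St3gal5 and St6gal1, the ceramide and glucosylceramide synthases Cers4 and Ugcg, Hacd4 of fatty acid elongation, and Abhd5, the activator of triglyceride lipase on lipid droplets. Abhd5 was at 8.99, 8.97 and 8.95 in VEH, at 8.09, 8.23 and 7.93 in AI, and at 9.40, 9.32 and 9.39 in AI+E2. Mitochondrial and energy genes numbered 12, including Idh2, Acad9, Hadh, Bcat2 and Higd2a of mitochondria, Ldha, the lactate dehydrogenase subunit, Pdk3, which restrains pyruvate dehydrogenase, and Prkaa2, a catalytic subunit of AMP-activated kinase. Prkaa2 was at 8.46, 8.38 and 8.48 in VEH, at 7.78, 7.91 and 7.55 in AI, and at 8.37, 8.28 and 8.41 in AI+E2.

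Redox, detoxification and other enzymes numbered 9, with Glod5, Glrx and Hsd17b1 already given. Mgst1, a membrane glutathione transferase, was at 11.11, 11.19 and 11.20 in VEH, at 9.48, 9.59 and 9.59 in AI, and at 10.82, 10.71 and 10.73 in AI+E2. Of 11 measured glyoxalases and related enzymes Glod5 is the only member. Of the other 10, 4 fell and 1 was higher with AI, against 11.0% and 5.91% of all genes, and 4 rose with AI+E2, against 8.65%. Mcee, an epimerase of propionate breakdown, fell by 0.52 and was 0.61 higher with AI+E2, while Hagh, which completes the glyoxalase cycle, fell by 0.48 and was only 0.06 higher (adjusted p = 0.661).

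Among ectoenzymes, Enpp2 encodes autotaxin, the secreted enzyme that makes lysophosphatidic acid, and it was bright in each group. Its values were 12.45, 12.72 and 12.60 in VEH, 11.58, 11.64 and 11.58 in AI, and 12.58, 12.54 and 12.52 in AI+E2. Bace2 and Dpep2, an aspartic protease and a dipeptidase, completed this role. Of 18 measured ectonucleotidases and adenosine receptors, Enpp2 and Enpp3 are members, 4 of the other 16 fell with AI, against 11.0% of all genes, and 1 of the 16, Nt5e, rose with AI+E2, which is near the 8.65% of all genes. Nt5e, which makes adenosine from AMP, fell by 0.60 with AI and was 0.46 higher with AI+E2. Of 16 measured genes of related endopeptidases and phosphate handling other than Phex, 4 were higher with AI and 1 fell, against 5.91% and 11.0% of all genes. Mme, the related endopeptidase neprilysin, was 1.13 higher with AI.

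Receptors, adhesion molecules and transporters numbered 16. Ghr, the growth hormone receptor, was at 8.09, 8.12 and 8.04 in VEH, at 6.88, 7.16 and 6.83 in AI, and at 8.26, 8.16 and 8.32 in AI+E2, with the AI arrays apart. Alcam, an adhesion molecule, was at 9.76, 9.79 and 9.83 in VEH, at 8.20, 8.56 and 8.25 in AI, and at 9.86, 9.73 and 9.95 in AI+E2. Itga6, the laminin receptor subunit, was at 9.34, 9.24 and 9.32 in VEH, at 7.89, 8.11 and 7.83 in AI, and at 8.73, 8.56 and 8.81 in AI+E2, where the day 16 groups do not overlap.

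Gabrg3 was the only one of 13 measured GABA-A receptor subunits that was called in AI against VEH or in AI+E2 against AI. Cd80 was the only member among 10 measured genes of the B7 and CD28 families, of which Cd28, the receptor of Cd80 on T cells, was 0.28 higher with AI and a further 0.46 higher with AI+E2. Of 17 measured exchange factors for Ras and Rap and diacylglycerol kinases other than Rasgrp1, 4 fell with AI, against 11.0% of all genes. With AI+E2 1 rose and 1 was lower, which is near the 8.65% and 4.13% of all genes. Rasgrp3 fell by 0.74 with AI and was 0.03 higher with AI+E2 (adjusted p = 0.910). Of 12 measured reticulons and ER shaping genes other than Rtn1, 3 fell and 1 was higher with AI, against 11.0% and 5.91% of all genes. Reep3 and Rtn3 fell by 0.56 and 0.44 and were 0.51 and 0.29 higher with AI+E2, and Reep6 went the other way, 1.45 higher with AI and 0.63 lower with AI+E2.

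The lists that name estrogen itself held 0 members. Members are 113 of 14506 genes, so 0 in lists this short is near the share of all genes. Of 13 measured estrogen receptors and coregulators, 1 was higher and 1 lower with AI, near the 5.91% and 11.0% of all genes. Between AI+E2 and AI 0 were called at an adjusted p under 0.05, against 8.65% higher and 4.13% lower. Of 18 measured textbook estrogen-induced genes, 2 were higher and 3 lower with AI, against 5.91% and 11.0% of all genes. From AI to AI+E2, 2 were higher and 3 lower, against 8.65% and 4.13%. Vegfa, the vascular growth factor, fell by 0.47 with AI and was a further 0.37 lower with AI+E2. The list of 7 measured KCNQ and KCNE potassium channel subunits also held 0 members, again near the share of all genes. Kcnq1, which fell by 1.93 with AI, was only 0.12 higher with AI+E2 (adjusted p = 0.395).

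Secreted proteins numbered 11, among them Slpi and Smoc2, a protease inhibitor and a matrix protein, Lgals1, a galectin, Angptl4, an inhibitor of lipoprotein lipase, Pcolce, an enhancer of procollagen processing, and the chemokines Cxcl14 and Ccl5. Pcolce was at 9.37, 9.27 and 9.22 in VEH, at 8.64, 8.62 and 8.59 in AI, and at 9.68, 9.58 and 9.50 in AI+E2. The last role, with 13 members, held signalling and other intracellular proteins, such as Gnai1, an inhibitory G protein subunit, Anxa5, an annexin, and Nnat, neuronatin.

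**Figure D3:**
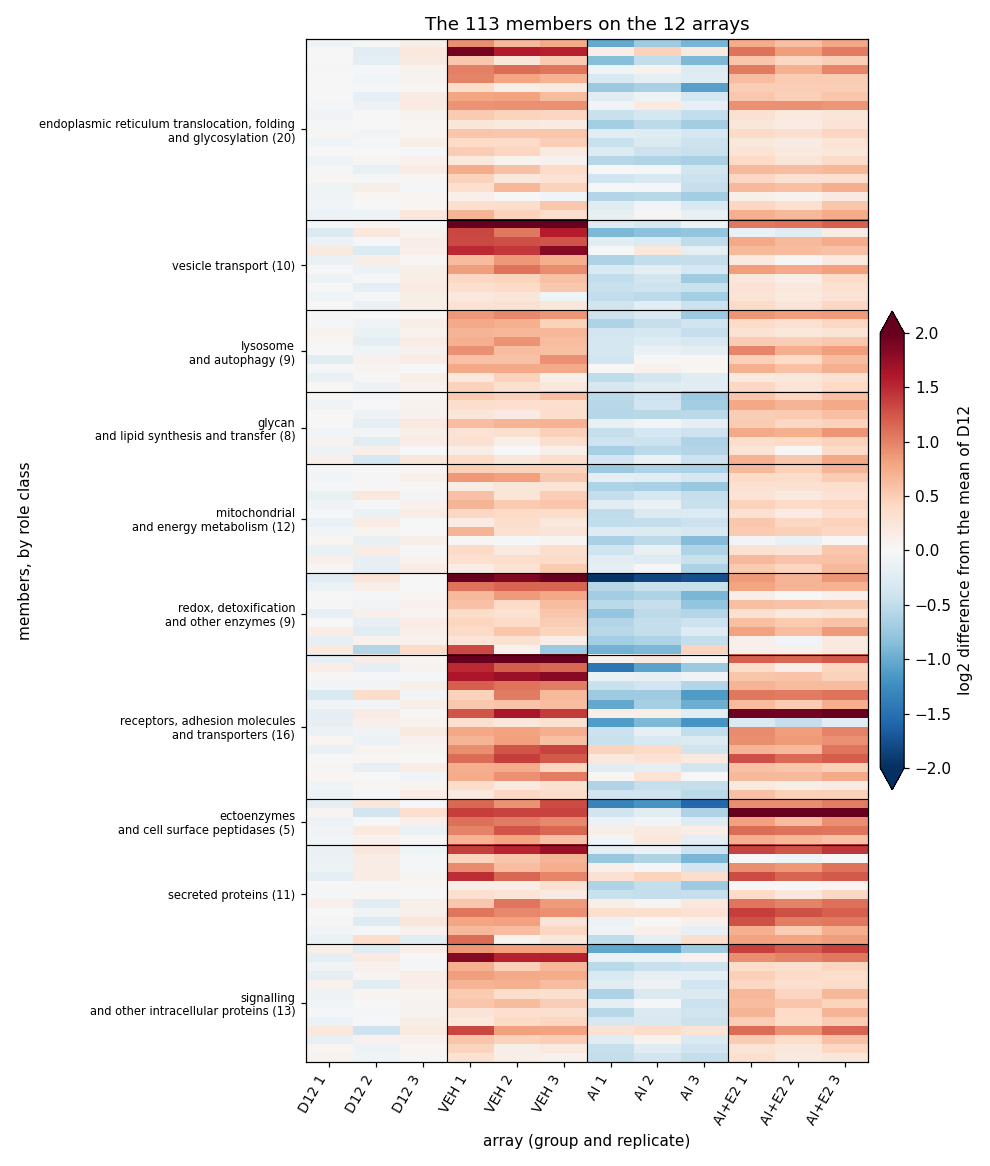
Difference of each array from the D12 mean (log2, colour from -2 in blue to 2 in red) for the 113 members (rows, by role class with the number of members) on the 12 arrays (columns). The VEH and AI+E2 columns are mostly red and the AI columns mostly blue, with exceptions such as Hsd17b1 and Ccl5, whose arrays differ within VEH and AI.

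No member is on a marker list of another cell type, but endothelial markers moved with AI as well. Of 11 measured endothelial markers, 10 fell with AI, with a median of -0.50, against 11.0% of all genes called lower. With AI+E2 1 rose, near the 8.65% of all genes. Their summed level on the linear scale was 7260 to 7479 in VEH, 4861 to 5640 in AI, 5262 to 5573 in AI+E2 and 5092 to 5773 in D12. The AI+E2 arrays thus lay within the range of AI. The rule required members to rise with AI+E2, so nothing is read from a contrast of members with these markers. The part of endothelium in the members' values was not tested. The member Adgrl4 is known as an endothelial receptor, and it was at 8.36, 8.53 and 8.64 in VEH, at 7.63, 7.89 and 7.60 in AI, and at 8.26, 8.25 and 8.37 in AI+E2. Of 11 measured markers of smooth muscle and pericytes, 4 fell with AI and 0 rose with AI+E2 at an adjusted p under 0.05, against 11.0% and 8.65% of all genes. Of 8 measured luteal markers, 4 rose and 1 fell with AI, and of 15 macrophage markers 4 rose, against 5.91% of all genes called higher and 11.0% lower.

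Markers of lymphocytes and fibroblasts were counted beside the shares of all genes. Of 12 measured lymphocyte markers, 1 fell with AI, near the 11.0% of all genes. From AI to AI+E2 3 rose, against 8.65%, and 0 were called the other way in either. Their summed level was 1602 to 1725 in VEH, 1437 to 1658 in AI, 1695 to 1765 in AI+E2 and 1385 to 1608 in D12, so that VEH and AI overlapped and AI and AI+E2 did not. The members Cd80, Ccl5 and Rasgrp1 are also known from immune cells. Of 12 measured markers of fibroblasts and extracellular matrix, 3 fell and 1 rose with AI, against 11.0% and 5.91% of all genes. From AI to AI+E2 1 rose, near the 8.65% of all genes. Their summed level was 8288 to 9822 in VEH, 7300 to 8331 in AI, 8148 to 8472 in AI+E2 and 7248 to 7801 in D12. The part of these cells in the members' values was not tested.

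AI+E2 and VEH were then compared, to see how far members returned to the level of vehicle. The rule set no threshold on this difference itself, although it used both groups' arrays in limits that chose for high values of each. Its limits still bound the difference. The rise had to be at least 0.585, so a member could lie below VEH at most by the part of its fall beyond 0.585. In the same way it could lie above VEH at most by the part of its rise beyond 0.585. The counts and adjusted p values of this comparison are therefore a description of the members. Of the 113 members, 24 were below VEH and 12 above it by limma with an adjusted p under 0.05, against 6.90% of all genes called lower and 6.11% called higher, and 77 were not called. By the methods' t-test with the same adjustment 14 were lower and 4 higher, and limma called 7 higher when VEH replicate 3, AI+E2 replicate 1 or AI+E2 replicate 3 was left out in turn. The median difference was -0.03, with 53 members above VEH and 60 below. For 89 members the whole 95% interval of the difference lay within 1.5-fold of VEH, against 93.7% of all genes.

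As a share of the fall with AI, the distance that remained between AI+E2 and VEH had a median of 2.64%, with quartiles of -15.3% and 23.1%, where a negative share means a level above VEH. Computed for each AI+E2 array, the median over the members was -0.41%, 8.50% and 2.43%, with an SD of 4.55. The shares ranged from -77.4% for Angptl4 to 64.9% for Gpc1. The rule capped this share, more tightly the smaller the fall, because the rise had to be at least 0.585. A small median share is therefore partly a result of the choice of members, and the shares are a description.

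The members furthest below VEH were among those that fell most with AI. This follows from the rule, because only a member with a large fall could remain far below VEH and still rise by 0.585. Rab27a remained 1.39 lower (SE 0.14, adjusted p = 5.12e-06), Gabrg3 1.35 lower (SE 0.08, adjusted p = 3.52e-08) and Glod5 1.21 lower (SE 0.11, adjusted p = 2.65e-06). Gpc1 remained 1.20 lower and Rtn1 1.18 lower, and all 3 AI+E2 arrays lay below all 3 VEH arrays for each of these 5 genes. Of the 10 members with the largest fall, 6 were called below VEH, and the sixth was Cd80, which remained 0.97 lower (adjusted p = 0.000353). The members furthest above VEH were Phex, 0.89 higher (SE 0.13, adjusted p = 0.00033), Lhfpl1 at 0.53 (adjusted p = 0.00386), Angptl4 at 0.49 (adjusted p = 0.0316), Rasgrp1 at 0.48 (adjusted p = 0.00479) and Hacd4 at 0.42 (adjusted p = 0.00106). Of these 5, Angptl4 lost its call without VEH replicate 3, where it was 0.31 higher, and without any single AI+E2 array, where it was 0.41 to 0.54 higher.

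By role, and beside 6.90% of all genes called below VEH and 6.11% above, 5 of the 10 vesicle transport members were called below and 0 above. Among the 8 members of glycan and lipid synthesis, 3 were called above VEH (Abhd5, St6gal1 and Hacd4) and 0 below. Receptors and adhesion molecules had 5 below (Gabrg3, Gpc1, Cd80, Itga6 and Gpr176) and 1 above (Lhfpl1), and the ER role had 3 below (Selenom, Fkbp10 and Ssr2) and 1 above (Pdia6) of 20, the latter being near the share of all genes. How far a role could lie below VEH was bounded by its falls, since each member had to rise by at least 0.585. The median fall on the log2 scale was 1.25 for vesicle transport and 0.78 for glycan and lipid synthesis. These counts are therefore a description, and the roles were not tested against each other. Enpp3 differed from VEH by -0.15 with 95% limits of -0.40 and 0.10 (adjusted p = 0.520), and Enpp2 by -0.04 with limits of -0.22 and 0.14 (adjusted p = 0.836).

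**Figure D4:**
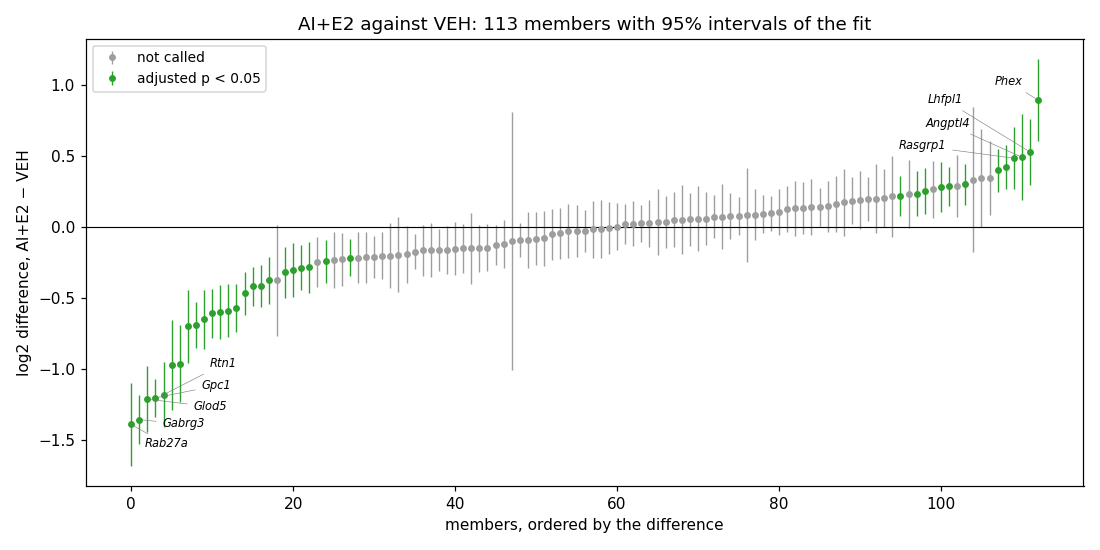
Difference of AI+E2 from VEH (log2, vertical axis) for the 113 members in order of the difference (horizontal axis), with 95% intervals from limma and members with an adjusted p under 0.05 in green. Of the 113, 24 green points lie below 0 and 12 above, from -1.39 for Rab27a to 0.89 for Phex.

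The comparison with day 12 shows where the members stood before treatment, and the rule did not use the D12 arrays. It did use those of the other 3 groups, and chose genes with high VEH and AI+E2 arrays and low AI arrays. This pushes VEH and AI+E2 upward and AI downward against D12, by an amount that was not measured, while the shares of all genes printed beside the counts are of genes not chosen this way. The counts of calls and adjusted p values against D12 are therefore a description of the members. The 3 comparisons also share the D12 arrays. VEH on day 16 was above D12 for all 113 members, with a median difference of 0.56. By limma, 93 members were higher in VEH, against 6.91% of all genes, and 0 lower, against 3.23%, at an adjusted p under 0.05, a comparison pushed toward higher calls because the rule chose high VEH arrays. The methods' t-test called 14 higher. All 3 VEH arrays lay above all 3 D12 arrays for 103 members, against 12.5% of all genes. The largest rises were those of Gabrg3 with 2.54 (5.83-fold, adjusted p = 1.19e-10), Rtn1 with 2.29 (4.89-fold), Glod5 with 2.01 (4.02-fold), Gpc1 with 1.72 and Selenom, a selenoprotein of the ER, with 1.68.

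Gabrg3 was at 7.69, 7.98 and 7.90 in D12 and Rtn1 at 6.22, 6.30 and 6.21, far under their VEH values. The members not called were 20 in number. They included Hyou1, Prkaa2 and Ugcg, with differences of 0.02, 0.02 and 0.08, and their D12 arrays lay among or near those of VEH. Prkaa2, for example, was at 8.46, 8.27 and 8.53 in D12.

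AI on day 16 was below D12 for 101 of the 113 members, with a median difference of -0.37. By limma, 67 were lower in AI, against 4.27% of all genes, and 1 higher, against 3.30%, a comparison pushed toward lower calls because both limits of the rule chose low AI arrays. The methods' t-test called 3 lower and 0 higher. All 3 AI arrays lay below all 3 D12 arrays for 76 members, against 11.6% of all genes. The largest falls below D12 were those of Glod5, 1.85 lower (adjusted p = 1.34e-07), Enpp3, 1.36 lower (adjusted p = 5.13e-06), Cd80, 1.08 lower, Itga6, 1.07 lower, and Rasgrp1, 0.94 lower. Glod5 was at 8.00, 8.49 and 8.22 in D12 and so lay between its AI and AI+E2 values.

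Other members were with AI near their day 12 level. Gabrg3 differed from D12 by 0.08 with 95% limits of -0.09 and 0.26 (adjusted p = 0.678), Gpc1 by -0.13 with limits of -0.26 and 0.01 (adjusted p = 0.309), and Lhfpl1, a tetraspan membrane protein, by 0.01 with limits of -0.22 and 0.24 (adjusted p = 0.985). The member that was higher in AI than in D12 was Pcolce, by 0.31 (adjusted p = 0.00866).

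AI+E2 was above D12 with a median of 0.53. By limma, 93 members were higher in AI+E2, against 7.52% of all genes, and 1 lower, against 4.58%. The methods' t-test called 44 higher and 0 lower. All 3 AI+E2 arrays lay above all 3 D12 arrays for 101 members, against 14.0% of all genes. The largest differences were 2.26 for Phex (4.77-fold, adjusted p = 7.88e-08) and 1.96 for Lhfpl1 (3.89-fold, adjusted p = 4.24e-08). The member that was lower was Itga6, by 0.32 (adjusted p = 0.0301), a call lost without D12 replicate 2, D12 replicate 3, AI+E2 replicate 1 or AI+E2 replicate 2. Rab27a differed from D12 by -0.07 with limits of -0.36 and 0.22 (adjusted p = 0.789), so that its AI+E2 level was near that of day 12 and not that of VEH.

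**Figure D5:**
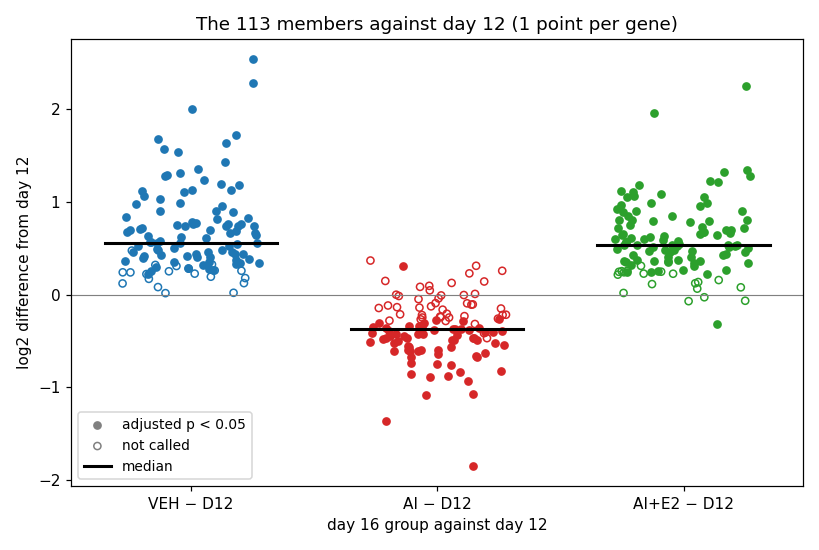
Difference of each day 16 group from D12 (log2, vertical axis) for the 113 members, 1 point per gene, filled where the adjusted p of limma was under 0.05, with a bar for the median. The medians are 0.56 for VEH, -0.37 for AI and 0.53 for AI+E2.

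The same RNA was read by another probe set for 5 members. For Atp11a, Atp6v1a, Higd2a and Map1lc3b the other probe set was also lower with AI and higher with AI+E2, although 0 of the 5 passed both limits. Atp11a differed by -1.26 with AI on the other probe set and by -1.27 on the one used, and was 0.40 and 0.66 higher with AI+E2. For Ldha the other probe set differed by -0.50 with AI and by a further -0.81 with AI+E2, so the pattern of Ldha rests on the probe set used. Of all members, only Chid1 and Ap2a2 are next to each other in the genome by RefSeq order.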

How the data were processed

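Each of the 12 arrays held CL RNA of a different rat. The deposited table holds RMA log2 values for 29214 probe sets, made by the authors in R 2.12.2, as their methods and the submitters' processing notes say. RMA corrects for background, equalises the arrays and combines the probes of a set, which can compress large differences. The sources used here do not say which arrays were normalized together or whether dim probe sets were removed. The platform annotation gave 15310 probe sets 1 gene symbol, 323 several and 13581 none, and only the first kind was used. Of these, 15279 had an identifier in RefSeq. Where several probe sets shared a symbol (527 genes), the brightest by mean was kept. This left 14506 genes, with no filter on low values.

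Differences were estimated with lmFit and eBayes of limma 3.58.1 (R 4.3.3) over the 14506 genes (a mean for each of 4 groups, 8 residual and 6.66 prior degrees of freedom), with Benjamini-Hochberg adjustment over all genes and calls at an adjusted p under 0.05. All adjusted p values are from this fit unless the methods' t-test is named. Permuting 3 arrays against 3 cannot give an exact two-sided p under 0.1, so no permutation p is given. Each animal is a replicate. The limma p values weigh a difference against the spread between animals, pooled over the 4 groups and drawn toward that of other genes. The members, gene lists and families were chosen with earlier results of these data known. The genes named are the 5 leading members, the 10 largest falls, the 5 largest called differences each way in AI+E2 against VEH and in VEH against D12, members on lists, genes next to the limits, and up to 3 other genes per pathway list by p. Members named as examples of a role were chosen after their values were seen. The share of a fall that remained is the difference of VEH and AI+E2 over that of VEH and AI, from group means. Alternatives were the replicate number as a block, the methods' t-test, filters on dim genes, the mean of probe sets, quantile normalization again, group medians, 2 groups alone and leaving out each array. Promoter windows are from RefSeq, build GRCr8. Figures were drawn with matplotlib 3.10.9 in Python 3.11.15.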

Additional observations from a re-analysis of the deposited data

How the results depend on the processing

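The counts of members called depended most on the test. By the methods' t-test with Benjamini-Hochberg adjustment, which does not share the spread between genes, AI+E2 against VEH had 4 higher and 14 lower members, 14 were higher in VEH than in D12, 0 were higher and 3 lower in AI than in D12, and AI+E2 against D12 had 44 higher and 0 lower. The single member higher in AI than in D12 became 2 with the 2 groups alone, 3 with quantile normalization again, and 2 and 3 without the 25% and 50% of genes with the lowest means. With a limit of 2-fold in place of 1.5-fold, 25 members remained, and with group medians 120 genes met the rule, 104 of them members.

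Leaving out 1 array at a time gave 103 to 135 members and a median share of the fall that remained of 1.13% to 4.71%. AI+E2 against VEH then had 7 to 11 higher and 18 to 23 lower members, with 82 to 95 higher in VEH than in D12, 55 to 70 lower and 1 to 2 higher in AI than in D12, and 82 to 92 higher and 0 to 1 lower for AI+E2 against D12. With the replicate number as a block AI+E2 against VEH had 9 higher and 20 lower members, with 92 higher in VEH than in D12, 63 lower and 1 higher in AI than in D12, and 90 higher and 1 lower for AI+E2 against D12. Arrays with the same number deviated from their group means with a median correlation of -0.087 over 18 pairs, of which 4 were above 0.1, so the numbers were not taken to pair animals. For 19 named members in the 4 comparisons without a threshold of their own in the rule (76 differences), the alternatives gave 988 values. Of these, 938 were called in the same direction as before or again not called, 45 were no longer called (32 of them by the methods' t-test and 13 by others), 5 were newly called and 0 reversed.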
